A study of Mus musculus with 62 samples.

Results

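The 10 circadian clock genes examined here were the activator Clock, the repressors Per1, Per2, Per3, Cry1 and Cry2, the nuclear receptor repressors Nr1d1 and Nr1d2, and the output transcription factors Dbp and Tef. They were chosen by gene symbol, as 10 of the 56415 genes in the count table, and all 10 passed the low-count filter in every comparison. The 62 libraries were made from poly(A) RNA of 16 C57BL/6J males, 8 to 10 weeks of age. They came from the dorsal and ventral striatum (DS and VS), the dorsal and ventral parts of the hippocampus (dHPC and vHPC) and the cortex. Acute mice received 1 intraperitoneal injection of saline or of 2 g/kg ethanol, chronic mice received 10 daily injections of one or the other, and every mouse was killed 4 h after its last injection. Each of the 4 conditions had 4 mice, each mouse gave 1 to 5 of the regions, and each of the 20 groups held 3 or 4 libraries. Libraries of a condition that share a replicate number were taken as 1 mouse, which the labels do not state. All groups were kept on a 12 h light/dark cycle, and the clock hour of injection and of collection is not given in the sources used here. The groups therefore share an interval since injection, while an hour of day that differed between groups cannot be told apart from the injection itself.

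Gene counts per library ran from 43173748 to 71164766 in cortex and dHPC, which formed 1 library kit and sequencing batch, and from 8149628 to 46564992 in vHPC, DS and VS, which formed the other. One library, DS chronic saline replicate 2, had 0 counts on 6 whole chromosomes, among them chromosome 7 with Dbp, and was left out, so 61 libraries entered the values below and DS chronic saline has n = 2. The regions were checked against marker genes: the summed level of 10 markers of striatal projection neurons was 2866 to 9260 CPM (counts scaled to the size of the library) in DS and VS against 270 to 381 CPM in cortex. In hippocampus it reached 2850 CPM in a dHPC chronic saline library and 1524 CPM in a vHPC chronic ethanol library, so the highest dHPC value came close to the lowest striatal one. All 9 markers of cortical and hippocampal excitatory neurons were detected in every region. In DS and VS those 9 markers differed between treatments. Their summed level was 409 to 498 CPM in DS acute saline against 19.1 to 105 CPM in DS acute ethanol, and 338 to 843 CPM in VS acute saline against 16.9 to 127 CPM in VS acute ethanol, while cortex libraries held 1673 to 2296 CPM. In tissue RNA of this kind, a changed number of expressing cells and a changed amount of RNA per cell cannot be told apart.

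In the mammalian clock, the CLOCK and BMAL1 proteins bind E-boxes and switch on Per, Cry, Nr1d and the genes of the PAR bZIP factors Dbp and Tef. PER and CRY proteins return to the nucleus and repress CLOCK and BMAL1, NR1D1 and NR1D2 (REV-ERB alpha and beta) repress Bmal1 through ROR elements, and DBP and TEF act on D-boxes in further genes, Per3 among them. Per1 and Per2 are also known to respond within hours to glucocorticoids and to neuronal activity, which sets them apart from the output genes Dbp and Tef. In brain tissue outside the suprachiasmatic nucleus, these loops run in most cell types.

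Promoter sequence is shown for 6 of the genes, since promoters hold the elements through which the clock proteins act on each other. Tef, Per3, Nr1d1, Per1 and Cry1 are shown for their matches to such elements, and Dbp as a gene described closely below that has none. Of the 10 genes, 9 matched the RefSeq promoter table (GRCm38.p6), with Per2 unmatched. Each line gives the 250 bases before an annotated start, 5′ to 3′ in the gene's direction. Capitals mark matches on either strand to the E-box CACGTG, the E-box variant CACGTT, the D-box TTANGTAA or the loose ROR pattern TNGGTCA, where N is any base. No base was shared by any pair of matches.

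Tef, first start (chr15:81802423-81802672, + strand): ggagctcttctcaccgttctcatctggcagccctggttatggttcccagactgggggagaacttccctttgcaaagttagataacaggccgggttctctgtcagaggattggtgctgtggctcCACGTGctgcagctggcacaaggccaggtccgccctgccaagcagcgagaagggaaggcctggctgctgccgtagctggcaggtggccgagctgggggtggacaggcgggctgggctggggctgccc
Tef, second start (chr15:81811164-81811413, + strand): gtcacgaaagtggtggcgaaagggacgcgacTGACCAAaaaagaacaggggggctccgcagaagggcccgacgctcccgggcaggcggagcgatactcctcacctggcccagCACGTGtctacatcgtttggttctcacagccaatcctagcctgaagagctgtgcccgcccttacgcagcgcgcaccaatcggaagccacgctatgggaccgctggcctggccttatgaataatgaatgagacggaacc
Dbp (chr7:45704997-45705246, + strand): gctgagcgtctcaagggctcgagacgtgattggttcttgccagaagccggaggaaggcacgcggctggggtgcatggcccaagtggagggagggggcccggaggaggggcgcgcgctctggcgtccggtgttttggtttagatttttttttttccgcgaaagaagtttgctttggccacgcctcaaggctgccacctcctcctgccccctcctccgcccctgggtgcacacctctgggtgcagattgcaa
Per3 (chr4:151044666-151044915, - strand): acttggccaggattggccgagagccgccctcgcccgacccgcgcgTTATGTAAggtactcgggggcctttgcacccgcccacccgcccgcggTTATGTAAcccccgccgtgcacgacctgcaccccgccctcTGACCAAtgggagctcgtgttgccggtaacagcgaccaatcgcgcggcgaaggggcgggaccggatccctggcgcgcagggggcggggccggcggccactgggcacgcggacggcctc
Nr1d1 (chr11:98775378-98775627, - strand): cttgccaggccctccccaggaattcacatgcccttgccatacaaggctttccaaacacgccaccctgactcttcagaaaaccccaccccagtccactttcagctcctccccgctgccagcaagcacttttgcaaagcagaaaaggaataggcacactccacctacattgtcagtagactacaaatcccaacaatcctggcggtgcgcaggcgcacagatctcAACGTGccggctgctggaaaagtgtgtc
Per1, first start (chr11:69098699-69098948, + strand): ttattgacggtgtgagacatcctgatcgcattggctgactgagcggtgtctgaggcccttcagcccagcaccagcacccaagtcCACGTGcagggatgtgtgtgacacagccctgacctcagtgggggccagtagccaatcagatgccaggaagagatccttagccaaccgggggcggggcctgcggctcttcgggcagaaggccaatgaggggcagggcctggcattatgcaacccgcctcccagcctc
Cry1 (chr10:85185055-85185304, - strand): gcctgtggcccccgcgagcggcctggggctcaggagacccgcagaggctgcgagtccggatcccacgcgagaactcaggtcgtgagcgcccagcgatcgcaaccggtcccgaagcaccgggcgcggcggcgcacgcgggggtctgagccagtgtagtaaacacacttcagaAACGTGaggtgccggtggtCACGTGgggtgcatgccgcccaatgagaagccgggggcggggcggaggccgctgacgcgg

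Both Tef starts had an E-box, as did the first Per1 start and the Cry1 start, and the Cry1, Cry2 and Nr1d1 starts had the E-box variant. Per3 had 2 D-boxes, and it was the only one of the 9 genes with any. The loose ROR pattern matched at Per3, Cry2 and the second Tef start. Each of these matches was TGACCAA, or TTGGTCA on the other strand. It has T at N, where the ROR core has A or G, so none is a match to that core. None of the searched letters occurred in the Dbp window, nor in those of Nr1d2, the 3 Clock starts and the second Per1 start, which are not shown. Across all 32851 promoters in the table, 6.02% held the E-box, 3.85% the variant, 2.06% the D-box and 9.19% the loose ROR pattern. A match is therefore a description of these letters and not a shown binding site. The cyclic AMP element TGACGTCA was searched as well, with matches in 0 of the 9 genes and in 1.55% of all promoters.

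Levels were compared between genes as CPM per kilobase of gene length, in saline libraries. Tef was among the 3 highest of the 10 genes in every region, at 41.5 ± 2.97 (SD, n = 6) in cortex, 39.3 ± 2.85 in dHPC, 36.5 ± 2.39 in vHPC, 43.3 ± 3.28 (n = 5) in DS and 47.1 ± 2.92 in VS. Dbp was at 45.0 ± 8.38 in DS and 44.3 ± 8.34 in VS, and at 20.3 ± 1.42 in vHPC. Its saline range overlapped that of Tef in DS, VS and dHPC. Cry2 and Nr1d2, at 14.4 to 24.3 CPM per kilobase, were neighbours in the order in cortex, dHPC, vHPC and VS, where their ranges overlapped. Per3, Cry1, Clock and Per2 made up the 4 lowest genes in every region, at 3.98 to 8.97 CPM per kilobase. Per3 was the lowest in 4 regions, and in DS and VS its range lay wholly under that of Clock, the gene next above it.

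**Figure D1:**
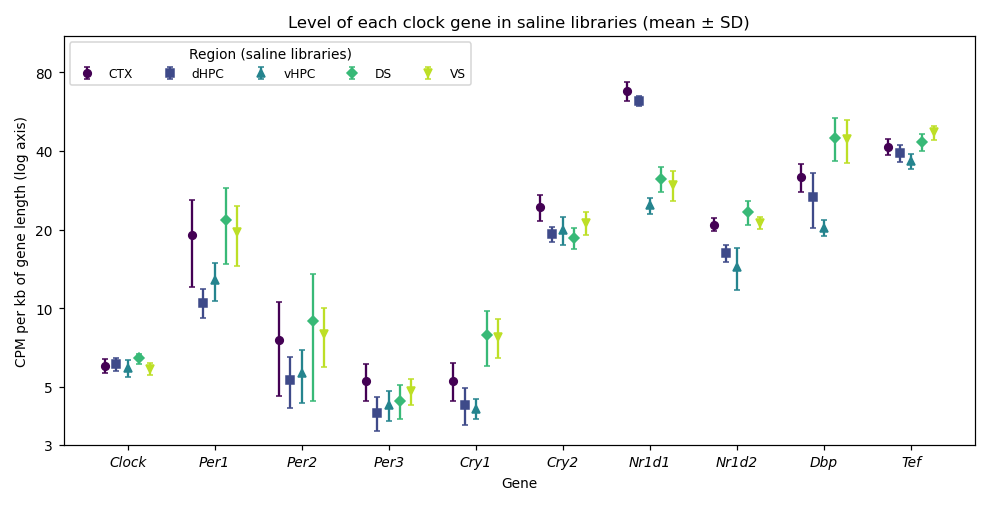
Level of the 10 clock genes in saline libraries of the 5 regions, as CPM per kilobase of gene length on a log axis (mean ± SD, n = 6, DS n = 5). Tef lies between 36.5 and 47.1 in every region, while Per3, Cry1, Clock and Per2 lie under 9.

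Nr1d1 was at 68.0 ± 5.77 CPM per kilobase in cortex and 62.3 ± 2.73 in dHPC, but at 24.7 to 31.3 in the other regions. Its exons overlap on the other strand with those of Thra, the thyroid hormone receptor alpha gene, over 52.8% of its exon bases. The cortex and dHPC libraries were made with a kit that does not keep the strand, so reads of the overlap could not be assigned to one gene there. Each region was made with only 1 kit, so a difference between regions cannot be told apart from one between kits. Whether Thra reads raised the Nr1d1 values of this batch was not tested. Over all conditions, mean Thra was 505 CPM (cortex) and 744 CPM (dHPC) in this batch. The other batch had 887 CPM (vHPC), 498 CPM (DS) and 683 CPM (VS). Comparisons within a region are made within 1 kit, but in cortex and dHPC an Nr1d1 difference can include Thra reads, and their part was not tested. For the other genes the overlap with exons on the other strand was 0 to 15.5%.

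Tef, a PAR bZIP activator (chr15:81686622-81711064, GRCm39), had the lowest FDR of the clock genes after acute ethanol. In DS the saline libraries held 303, 352 and 363 CPM and the ethanol libraries 437, 443 and 468 CPM. Every ethanol library was above every saline library, and Tef rose by 1.32-fold (log2 fold change 0.40, SE 0.07, edgeR quasi-likelihood FDR 0.00605). The call held without each of the 6 libraries in turn, with an FDR of 0.0123 to 0.0414. Dbp (chr7:45354512-45359627), the founding PAR bZIP factor, stood at 106, 144 and 143 CPM in DS saline and at 175, 168 and 165 CPM in DS ethanol. These groups did not overlap either, and Dbp rose with a log2 fold change of 0.36 (SE 0.10, FDR 0.0679). The Dbp call rested on few libraries: the FDR was 0.123 without acute saline replicate 2 (log2 fold change 0.23), 0.180 without acute ethanol replicate 3, 0.152 without replicate 4 and 0.135 without replicate 5, and it was 0.275 with all 4 DS groups in one fit.

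Tef and Dbp were 2 of the 10 clock genes called at an FDR under 0.1 in DS, where 5.15% of all genes tested were called. Of the 10, 6 had an unadjusted p under 0.05, as had 3178 of all 20495 genes tested there. By DESeq2's Wald test, which called 8.14% of genes in DS, Nr1d1 and Per3 were called as well. Nr1d1 (chr11:98658758-98666159) was at 90.2, 110 and 95.9 CPM in DS saline and at 122, 113.2 and 120 CPM in DS ethanol. The groups were apart, with a log2 fold change of 0.26 (SE 0.08, edgeR FDR 0.110, DESeq2 adjusted p 0.0559). Per3 (chr4:151088109-151129122) read 35.7, 35.5 and 47.7 CPM in saline against 51.5, 47.8 and 51.8 CPM in ethanol, where the lowest ethanol value lay just above the highest saline value (log2 fold change 0.34, SE 0.11, edgeR FDR 0.129, DESeq2 adjusted p 0.0803). The median log2 fold change of the 10 genes in DS was 0.19, against 0.00 over all genes. The excitatory neuron markers listed above were lower in these DS ethanol libraries and the summed striatal markers were 7975 to 8104 CPM against 5955 to 7189 CPM in saline. Tef stood at 289 to 338 CPM and Dbp at 72.1 to 98.8 CPM in acute saline cortex. Those libraries were of the other kit and sequencing batch, so a difference from DS cannot be told apart from one between kits. What part tissue content had in the DS differences was not tested.

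**Figure D2:**
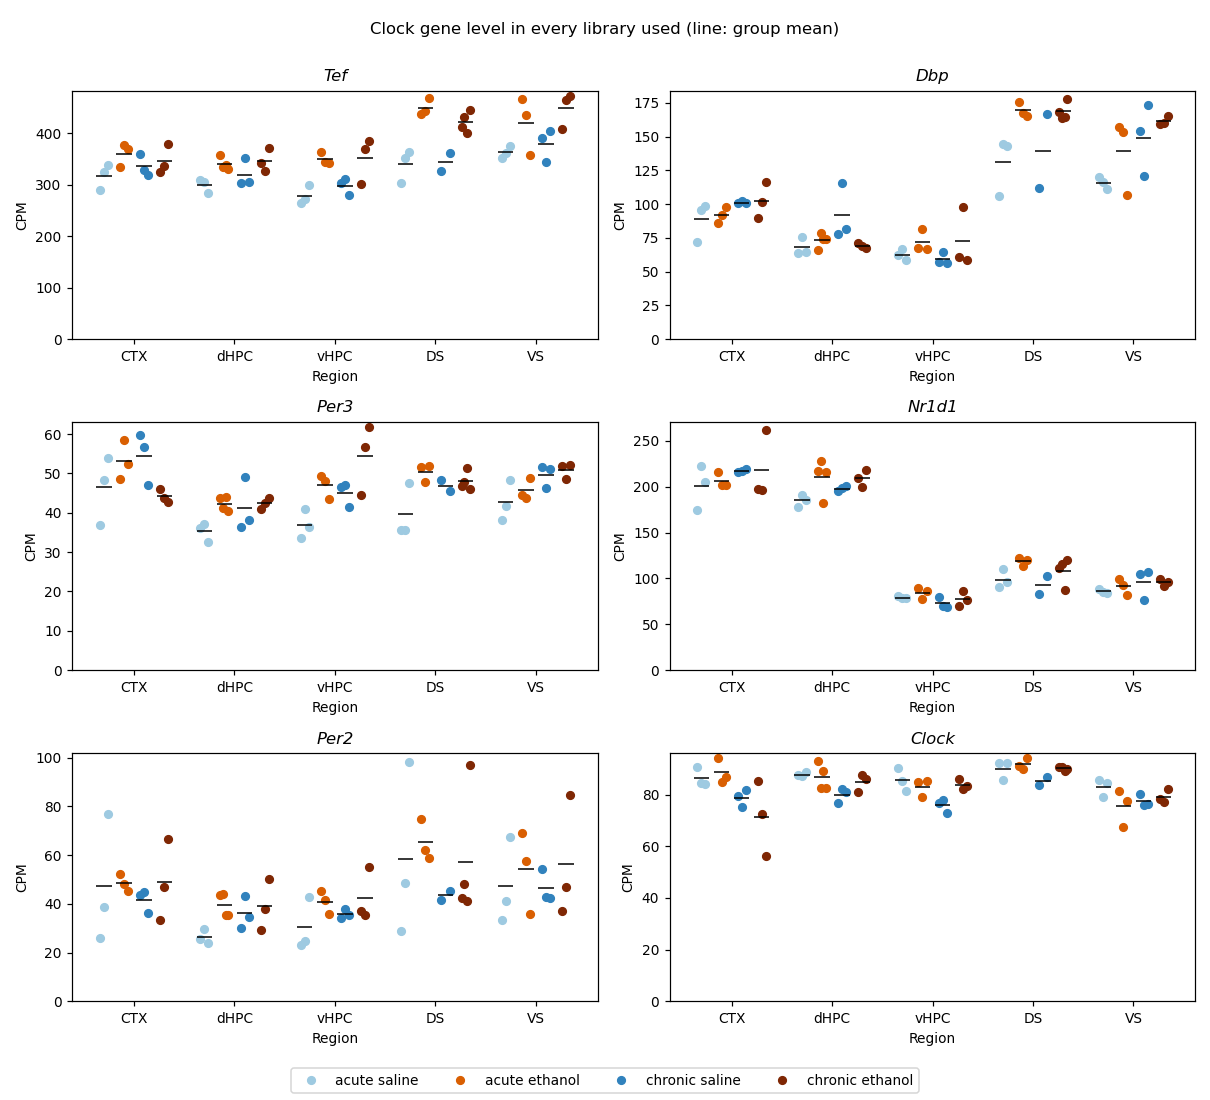
CPM of Tef, Dbp, Per3, Nr1d1, Per2 and Clock in each of the 61 libraries used, by region and condition (points: libraries, lines: group means). In DS the 3 acute ethanol points of Tef, 437 to 468 CPM, lie above the 3 acute saline points, 303 to 363 CPM, while Per2 spans 28.9 to 98.2 CPM within acute saline alone.

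In the other 4 regions no clock gene passed the edgeR threshold after acute ethanol, in cortex (1.99% of all genes called), dHPC (0.042%), vHPC (0%) or VS (0.0399%). At an unadjusted p under 0.05 there were 1, 5, 2 and 0 clock genes respectively. Of all genes tested, 3228 of 25905 in cortex and 2065 of 26215 in dHPC had such a p. In vHPC they were 2374 of 19916 and in VS 1466 of 20032. Tef nevertheless lay on the same side in each: its log2 fold change was 0.18 (SE 0.06, FDR 0.237) in cortex, 0.19 (SE 0.05, FDR 0.387) in dHPC, 0.33 (SE 0.08, FDR 0.219) in vHPC and 0.20 (SE 0.11, FDR 0.759) in VS. In vHPC the 3 saline libraries held 263, 271 and 299 CPM of Tef and the 3 ethanol libraries 362, 344 and 342 CPM. Those groups did not overlap, and DESeq2, which called 4.46% of genes in vHPC, called Tef there with an adjusted p of 0.0204. The summed level of 6 dentate granule neuron markers also set these libraries apart, at 183 to 378 CPM in saline and 538 to 738 CPM in ethanol, and its part in the Tef difference was not tested.

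Per2, a core repressor (chr1:91343704-91387046), had the largest difference of any clock gene after acute ethanol, in dHPC. The saline libraries held 25.5, 29.6 and 23.9 CPM and the ethanol libraries 43.5, 44.0, 35.6 and 35.6 CPM. The groups were well apart, with a log2 fold change of 0.60 (SE 0.10), but edgeR gave an FDR of 0.145 among 26215 genes tested. DESeq2, which called 1.6% of genes in dHPC, gave Per2 an adjusted p of 9.69e-05, Per3 0.0543 and Tef 0.0911. Per2 is thus called by 1 of the tools and not by the other. The summed striatal markers in these dHPC libraries were 601 to 969 CPM in saline and 323 to 640 CPM in ethanol, and their part in the Per2 difference was not tested.

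In cortex, DS, VS and vHPC the Per2 difference was 0.04 to 0.43 on the log2 scale, with FDRs of 0.480 to 0.967. The acute saline libraries there were far apart from each other: in DS they held 28.9, 48.5 and 98.2 CPM, the last from acute saline mouse 6, which was not sampled in dHPC. Without that library the DS difference was 0.73 on the log2 scale with an FDR of 0.0663, and in cortex and vHPC the same omission gave 0.59 (FDR 0.0656) and 0.76 (FDR 0.0760). Per1, the paralog with the fastest known response to stimuli, was on both sides of 0, from −0.38 in cortex (SE 0.22, FDR 0.517) to 0.33 in vHPC (SE 0.19, FDR 0.523). In cortex the Per1 saline libraries spanned 67.8 to 173.6 CPM and the ethanol libraries 93.3 to 97.8 CPM, so 1 group lay inside the other. Leaving out acute saline replicate 2 gave Per1 −0.68 and an FDR of 0.0177 in cortex, where leaving out replicate 6 called Per2 and not Per1.

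The cryptochrome genes, which encode partners of the PER proteins, did not pass. Cry1 differed by −0.17 to 0.22 on the log2 scale among regions (FDR 0.624 to 0.994) and Cry2 by −0.08 to 0.22 (FDR 0.277 to 0.974). Nr1d2, the REV-ERB beta gene, differed by −0.26 in vHPC and by 0.22 in DS, with FDRs of 0.490 and 0.243. Clock itself lay between −0.15 and 0.04 (FDR 0.837 to 0.979), with SEs of 0.06 to 0.10.

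Because the 5 regions came from the same mice, the regions were also fitted together, with region as a fixed term and mouse as a block in limma-voom. In that fit 4 of the 10 clock genes passed after acute ethanol, all upwards, where 7.51% of all genes passed in either direction. Tef rose by 0.26 on the log2 scale (SE 0.04, FDR 0.000227), Per3 by 0.25 (SE 0.05, FDR 0.00281), Nr1d1 by 0.13 (SE 0.04, FDR 0.0478) and Dbp by 0.19 (SE 0.06, FDR 0.0656). Per2 was at 0.34 (SE 0.13, FDR 0.134). The differences of Tef, Per3, Nr1d1, Dbp and Per2 were above 0 in each of the 5 regions taken alone. For Nr1d1 the cortex and dHPC libraries in these fits can include Thra reads. Within batches Tef passed in both, at 0.19 in cortex and dHPC (FDR 0.0783) and at 0.31 in vHPC, DS and VS (FDR 0.00454). Per3 was at 0.23 (FDR 0.214) and 0.26 (FDR 0.0451), Dbp at 0.09 (FDR 0.71) and 0.27 (FDR 0.0657), and Nr1d1 at 0.12 (FDR 0.503) and 0.15 (FDR 0.141). With DS and VS left out, whose libraries differed in cortical genes, Tef (0.23, FDR 0.0108) and Per3 (0.26, FDR 0.0499) passed, while Dbp (0.11, FDR 0.468) and Nr1d1 (0.12, FDR 0.332) did not. Markers also differed in the regions kept, as given above for dHPC and vHPC. In cortex the summed level of 10 myelin markers was 2006 to 2259 CPM in acute saline and 2365 to 3129 CPM in acute ethanol. What part tissue content had in these calls was not tested. Tef and Per3 passed without each of the 8 mice in turn. Nr1d1 did not pass without acute saline mouse 2 (FDR 0.230) or acute ethanol mouse 2 (FDR 0.101) or 3 (FDR 0.194), nor Dbp without acute saline mouse 2 (FDR 0.307) or acute ethanol mouse 3 (FDR 0.203) or 4 (FDR 0.169).

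**Figure D3:**
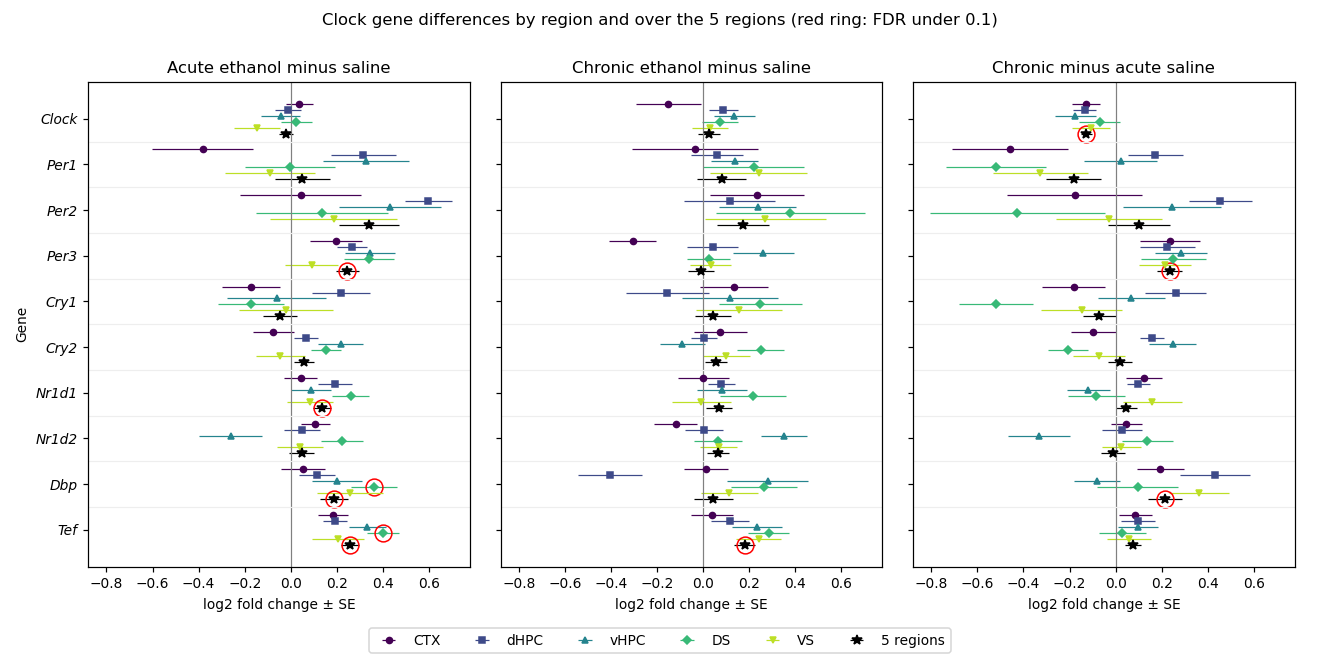
Log2 fold change ± SE of the 10 clock genes in each region (edgeR) and over the 5 regions (stars, limma-voom), for acute ethanol, chronic ethanol and the saline groups. Red rings mark an FDR under 0.1: after acute ethanol these are Tef and Dbp in DS and Tef, Per3, Nr1d1 and Dbp over the regions.

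The mouse is the unit that was treated, and a stricter reading gives each mouse 1 value, its mean over regions after region differences are removed. Over 4 ethanol and 4 saline mice, Tef was 0.07, 0.12, 0.13 and 0.15 on the log2 scale above the mean of all 16 mice in the acute ethanol mice, and between −0.22 and −0.06 in the acute saline mice. Every ethanol mouse was above every saline mouse (difference 0.27, exact two-sided permutation p = 0.0286, the smallest that 4 against 4 mice can give). The permutation tests weigh all mice equally, although acute saline mouse 5, at −0.20 for Tef, gave only 1 region, dHPC. The mice were also separate for Per3 (difference 0.27) and Dbp (0.20), with the same exact permutation p, and overlapped for Nr1d1 (0.14, exact permutation p = 0.0571). For Dbp the lowest ethanol mouse and the highest saline mouse were practically tied, both at −0.05. Of the 30 such tests over genes and comparisons, 5 reached that smallest p, and none can pass a correction for 30 tests. The permutation test was run for the clock genes only. The share of all genes whose mice separate in this way was not computed. Whether clock genes separate more often than other genes therefore cannot be told from these counts. In limma on 1 mean per mouse, 0% of the 18580 genes passed, with 2618 at an unadjusted p under 0.05. Tef then had an FDR of 0.126, Per3 of 0.222, Dbp of 0.275 and Nr1d1 of 0.351, while their log2 fold changes were 0.26, 0.25, 0.19 and 0.13. The 4 calls were thus made with mouse as a block under 1 correlation for all genes, and not with 1 value per mouse.

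**Figure D4:**
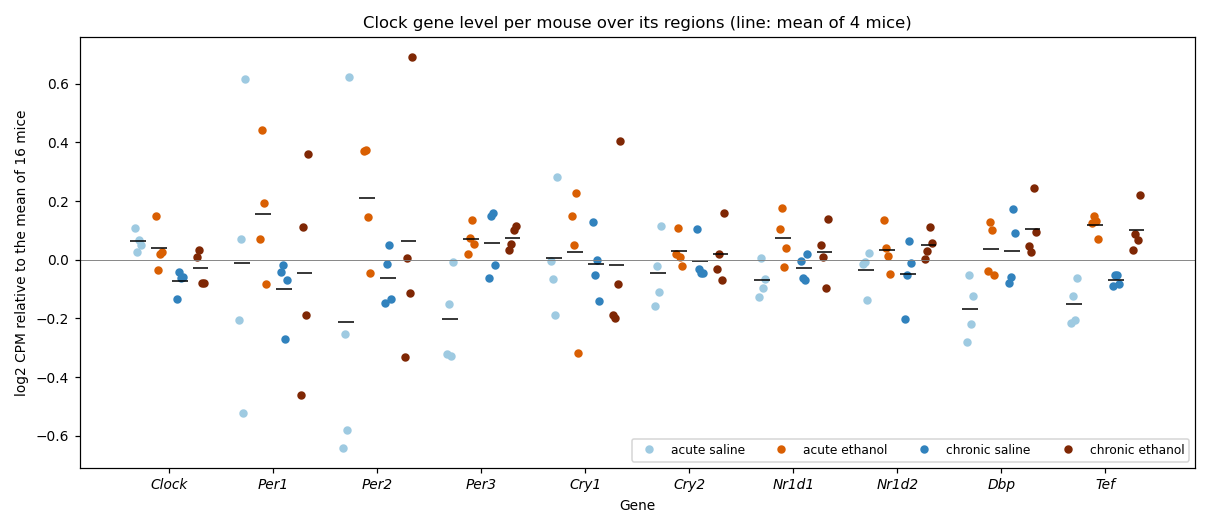
Log2 level of each clock gene per mouse, averaged over the regions taken from it and given relative to the mean of 16 mice (points: mice, lines: means of 4). Acute ethanol mice of Tef, 0.07 to 0.15, lie above acute saline mice, −0.22 to −0.06, whereas Per1 and Per2 spread from −0.64 to 0.69 with conditions intermixed.

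After 10 injections no clock gene passed in any region: over the 50 tests of chronic ethanol against saline the lowest FDR by edgeR was 0.367, with 6 at an unadjusted p under 0.05, and DESeq2 also called 0. Few genes passed at all, 0% in cortex, dHPC, DS and VS and 0.0555% in vHPC. Of all genes, 2656 of 25644 in cortex and 2136 of 25958 in dHPC had an unadjusted p under 0.05. In vHPC, DS and VS they were 1884 of 19814, 1495 of 19844 and 2023 of 20331. Tef was above 0 in each region, at 0.04 in cortex (SE 0.09), 0.12 in dHPC (SE 0.08), 0.23 in vHPC (SE 0.11), 0.28 in DS (SE 0.09) and 0.24 in VS (SE 0.10). In DS the 2 chronic saline libraries held 326 and 361 CPM and the 4 chronic ethanol libraries 411, 431, 401 and 444 CPM, with no overlap. Cortical markers were again lower with ethanol there, 23.6 to 159 CPM against 419 to 615 CPM. Over the 5 regions Tef rose by 0.18 (SE 0.04, FDR 0.0383), as 1 of 10 clock genes where 3.58% of all genes were called. The 4 ethanol mice, at 0.03 to 0.22, lay above the 4 saline mice, at −0.09 to −0.05 (difference 0.17, exact permutation p = 0.0286).

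The chronic Tef difference was at 0.08 in cortex and dHPC (FDR 0.736) and at 0.25 in vHPC, DS and VS (FDR 0.0846), at 0.12 (FDR 0.549) without DS and VS, and the call was lost without chronic saline mouse 3 (FDR 0.122), chronic saline mouse 6 (FDR 0.170) or chronic ethanol mouse 6 (0.13, FDR 0.221). With 1 mean per mouse its FDR was 0.520, where 0% of genes passed and 1614 had an unadjusted p under 0.05. Per3 over the regions was at −0.01 (SE 0.06, FDR 0.958) after chronic ethanol, with −0.31 in cortex (SE 0.10, FDR 0.443) and 0.26 in vHPC (SE 0.13, FDR 0.550). Dbp was at −0.40 in dHPC (SE 0.14, FDR 0.566), where chronic saline held 77.9, 115 and 81.5 CPM and chronic ethanol 71.1, 68.9 and 67.6 CPM, and at 0.01 to 0.28 in the other regions. The summed striatal markers were 213 to 2850 CPM in those dHPC chronic saline libraries and 186 to 329 CPM in the ethanol ones, and their part in the Dbp difference was not tested.

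Between the saline groups, 10 injections were compared with 1, a difference that ethanol has no part in. No clock gene passed within a region, with a lowest edgeR FDR of 0.156 over 50 tests, 11 at an unadjusted p under 0.05 and 0 called by DESeq2. All genes were called at 0.00772% in cortex, 0.00382% in dHPC, 0% in vHPC and VS and 3.17% in DS. An unadjusted p under 0.05 was reached by 1848 of 25911 genes in cortex and 2014 of 26167 in dHPC. In vHPC, DS and VS it was reached by 2176 of 19695, 2931 of 19473 and 1185 of 20107. In DS the summed level of 8 choroid plexus markers was 1926 to 7174 CPM in chronic saline and 24.5 to 297 CPM in acute saline. The 10 myelin markers in dHPC summed to 6992 to 8007 CPM in chronic and 8985 to 10322 CPM in acute saline. The 6 dentate granule neuron markers in vHPC summed to 383 to 696 CPM and 183 to 378 CPM. What part tissue content had in the differences between the saline groups was not tested. Over the 5 regions 3 clock genes passed, where 6.84% of all genes did. Clock (chr5:76357715-76452639), whose protein partners BMAL1, fell by 0.13 on the log2 scale with chronic saline (SE 0.02, FDR 0.00227), from 86.5 to 78.8 CPM in cortex, 87.7 to 79.9 in dHPC, 85.7 to 75.9 in vHPC, 90.1 to 85.3 in DS and 83.1 to 77.5 in VS. It was lower in each region. The 4 chronic saline mice, at −0.13 to −0.04, lay under the 4 acute saline mice, at 0.03 to 0.11 (difference −0.14, exact permutation p = 0.0286).

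Per3 rose by 0.24 (SE 0.05, FDR 0.0105) and Dbp by 0.21 (SE 0.07, FDR 0.0955) in chronic against acute saline. Per3 was 0.21 to 0.28 higher in each region, with FDRs of 0.408 to 0.844. These values share the acute saline libraries with the acute ethanol comparison: Per3 stood 0.25 higher in acute ethanol and 0.24 higher in chronic saline than in the same acute saline libraries, and Dbp 0.19 and 0.21 higher. Leaving out acute saline mouse 2, the lowest of all mice for Dbp and Tef, took Per3 to 0.18 (FDR 0.119) and Dbp to 0.16 (FDR 0.395) in the saline comparison. Dbp also lost its call there without acute saline mouse 4, 5 or 6 or chronic saline mouse 5 or 6 (FDR 0.102 to 0.280), while Clock kept its call without each of the 8 mice. Clock was at −0.14 (FDR 0.350) in cortex and dHPC and −0.12 (FDR 0.279) in vHPC, DS and VS, and Per3 at 0.22 (FDR 0.585) and 0.25 (FDR 0.164). With 1 mean per mouse 0% of genes passed, 2039 at an unadjusted p under 0.05, and Clock had an FDR of 0.367.

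The interaction asks whether the ethanol difference changed between paradigms. No clock gene passed in any region, where 0% of genes passed in each of the 5, and none passed over the regions, where 0.114% of genes did. The lowest edgeR FDR over the 50 tests within regions was 0.296, for Nr1d2 in vHPC, and 4 tests had an unadjusted p under 0.05. Among all genes, 2174 of 26540 in cortex and 1202 of 26850 in dHPC had such a p. In vHPC, DS and VS they were 2381 of 20618, 876 of 21049 and 965 of 20901. In vHPC Nr1d2 was lower with ethanol in the acute paradigm, 68.2 to 76.6 against 71.3 to 104 CPM, and higher in the chronic paradigm, 82.8 to 99.1 against 66.9 to 71.7 CPM (interaction 0.61, SE 0.17). The summed choroid plexus markers in vHPC were 26.6 to 206 CPM in chronic saline and 902 to 3231 CPM in chronic ethanol, and their part in the Nr1d2 values was not tested. DESeq2, which called 4.62% of the genes it tested there, called this 1 clock gene, with an adjusted p of 0.0640. Over the regions Per3 had an interaction of −0.26 (SE 0.08, FDR 0.294), from a difference of 0.25 in the acute and −0.01 in the chronic paradigm, and without acute saline mouse 6 it was −0.32 (FDR 0.0663). With 1 mean per mouse 0% of genes passed the interaction test, and 993 had an unadjusted p under 0.05. For Tef the interaction was −0.08 (SE 0.06, FDR 0.834). In the 12 comparisons within regions where edgeR called 0% of all genes, 876 to 2656 genes had an unadjusted p under 0.05 and DESeq2 called 2 to 578.

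Mice of the same condition differed widely in some clock genes. The SD between mice within conditions was 0.38 on the log2 scale for Per2, 0.33 for Per1 and 0.22 for Cry1, against 0.06 for Tef and for Clock. Over all 16 mice, conditions included, Per2 ranged over 2.52-fold and Clock over 1.22-fold. A mouse that was high or low in one region tended to be so in the others. Acute saline mouse 2 held Per2 at 25.9, 25.5, 23.1, 28.9 and 33.2 CPM in cortex, dHPC, vHPC, DS and VS, under the region mean in 5 of 5 regions. Acute saline mouse 6, given the same injection, held 76.9, 42.9, 98.2 and 67.2 CPM in the 4 regions sampled, above the mean in each. Chronic ethanol mouse 1 was low in 4 of 4 regions (29.3 to 42.4 CPM) and chronic ethanol mouse 6 high in 5 of 5, with 97.0 CPM in DS.

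**Figure D5:**
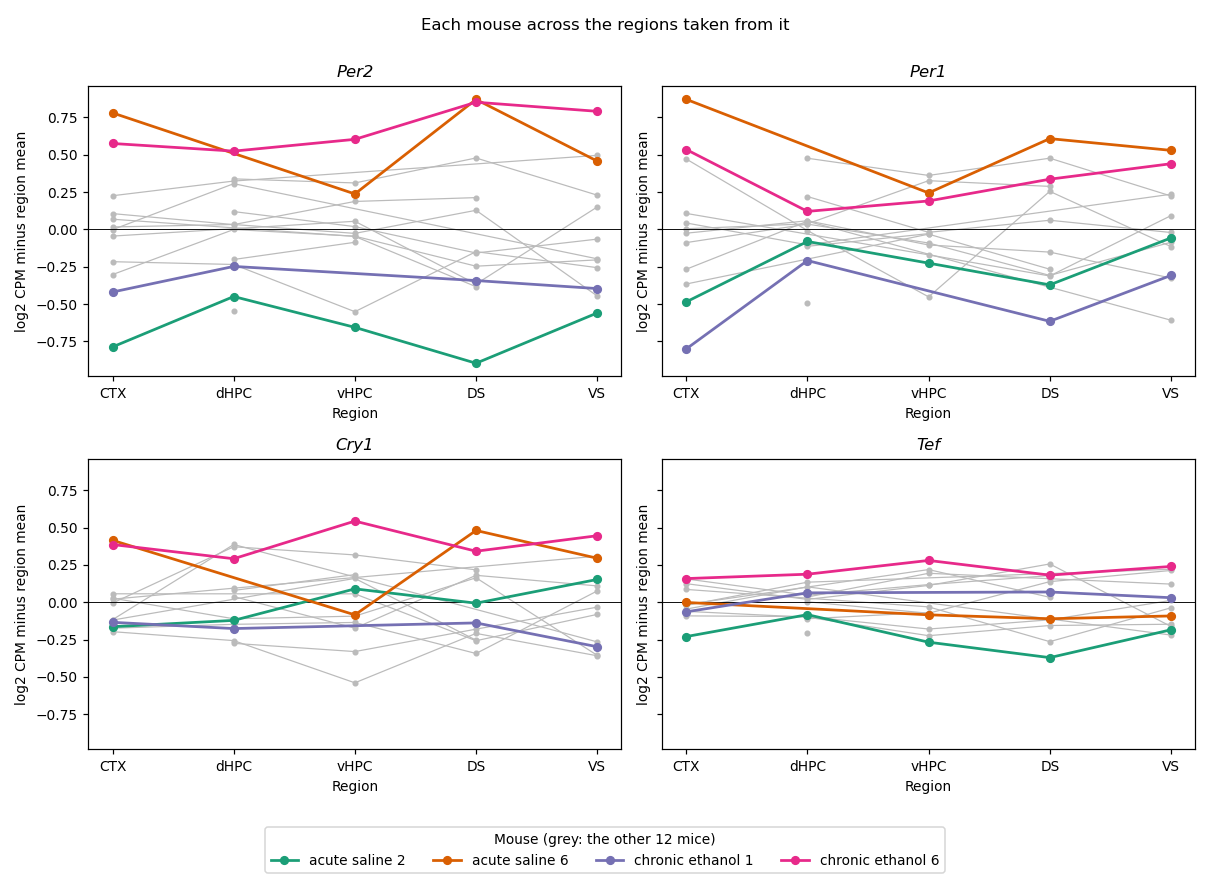
Log2 CPM minus the region mean for Per2, Per1, Cry1 and Tef, with 1 line per mouse across the regions taken from it. Acute saline mouse 2 stays under the mean and acute saline mouse 6 above it for Per2 in every region sampled, while Tef lies in a narrower band.

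The correlation between regions of the same mouse, after the region and condition means were removed, put numbers to this. It was 0.79 for Per2, 0.64 for Per1 and 0.58 for Cry1, and 0.27 for Cry2. Over 19344 genes the median was 0.05, and 1.41% of genes exceeded 0.5. Per3 (0.12), Tef (0.09), Nr1d1 (0.07), Dbp (0.00), Clock (−0.01) and Nr1d2 (−0.16) were within the bulk of genes. The fits over the regions gave all genes 1 correlation, 0.05 for acute ethanol and the interaction, 0.03 for chronic ethanol and 0.02 for the saline groups. These are under the gene's own value for Per2, Per1, Cry1 and Cry2, and also for the called genes Per3, Tef and Nr1d1. Where the correlation is set too low, the SE and FDR tend to come out too small, as for the Per2 values that follow. For Per2 the result of a comparison depended on 1 mouse: without acute saline mouse 6 it was 0.63 higher after acute ethanol over the regions (SE 0.08, FDR 5.16e-05) and 0.39 higher in chronic saline (SE 0.07, FDR 0.00345), whereas without acute saline mouse 2 it was 0.12 (FDR 0.717) and −0.11 (FDR 0.797).

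The same correlation was taken for genes known to follow neuronal activity and glucocorticoids. It was 0.54 (Ier2) to 0.80 (Fos) over 10 activity genes, and 0.19 (Pdk4) to 0.79 (Errfi1) over 10 glucocorticoid response genes. Of 10 activity genes, 10 were above the mean of all mice in acute saline mouse 6, by 1.03 on average on the log2 scale, and 0 of 10 in chronic ethanol mouse 1, at −1.57. Acute saline mouse 2, low in Per1 and Per2, was above that mean in all 10 activity genes, by 0.63 on average. These mice are examples picked from the 16, and a relation between Per and activity gene levels over the mice was not tested. Over the regions 9 of 10 glucocorticoid response genes rose after acute ethanol (Fkbp5 0.65, SE 0.07, FDR 2.33e-06, and Mt2 0.52, SE 0.06, FDR 1.75e-06), and 5 of 10 activity genes fell, in the fit that called 4 of the clock genes. In that fit 7.51% of all genes were called. After chronic ethanol, where 3.58% of all genes were called, 6 of the 10 glucocorticoid genes rose and 0 activity genes were called. Of all genes, 6.84% were called in chronic against acute saline. There all 10 activity genes fell, with Fos at −1.37 (SE 0.20, FDR 0.000205), and 4 glucocorticoid genes fell. With 1 mean per mouse none of these passed, as no gene did. Whether these genes and the clock genes moved for the same reason was not tested.

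Another 22 clock genes were taken in 4 lists by their known roles. Over the regions after acute ethanol 4 of them passed, beside 7.51% of all genes: 2 of 6 other activators fell, Bmal1, the partner of Clock, by 0.18 (SE 0.05, FDR 0.0415) and Rorb by 0.37 (SE 0.09, FDR 0.0128). Of 5 other repressors, Ciart rose by 0.36 (SE 0.10, FDR 0.0258) and Bhlhe41, the DEC2 gene, by 0.24 (SE 0.06, FDR 0.0175). With 1 mean per mouse none of the 4 passed, at an FDR of 0.510 for Bmal1, 0.198 for Rorb, 0.374 for Ciart and 0.176 for Bhlhe41. None of 4 other outputs (Hlf, Usp2, Wee1 and Nampt) and none of 7 kinases and ligases that act on clock proteins passed. Within regions, Bhlhe41 rose in DS (0.40, SE 0.10, FDR 0.0545), and in cortex Npas2, a paralog of Clock, fell by 0.34 (FDR 0.0894) and Rorb by 0.53 (FDR 0.0493). Of all genes, 5.15% were called in DS and 1.99% in cortex. After chronic ethanol Rorb fell over the regions (−0.52, SE 0.13, FDR 0.0383), where 3.58% of all genes were called. In chronic against acute saline over the regions, 6.84% of all genes were called. There Bmal2 (0.28), Ciart (0.32) and Usp2 (0.19) rose and Nfil3, which binds D-boxes as a repressor, fell by 0.30 (FDR 0.00812). These too did not pass with 1 mean per mouse, nor did Rorb after chronic ethanol. Rorb is also a gene of cortical neurons, whose markers differed between the DS and VS groups.

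By pattern over 61 libraries, each gene taken relative to its region's mean, the genes most like Dbp among 12778 others were Rap1gap (r = 0.77), Acy1 (0.76), Kcnh4 (0.75), Kcnt1 (0.75) and Ptpn5 (0.73), and the most opposed were Arhgap35 (−0.73), Atp6v1a (−0.72), Map1b (−0.71) and Ywhag (−0.70). Those most like Per1 were Nab2 (0.86), Ptpn1 (0.82), Egr4 (0.80), Midn (0.80) and Srf (0.79), and the most opposed were Eif5 (−0.68), Tlk2 (−0.66), Zfp867 (−0.61), Tmem18 (−0.60) and Maoa (−0.59). Within the clock genes, Per1 was nearest to Per2 (0.77) and Cry2 (0.71), and Tef to Per3 (0.66), Per2 (0.65) and Dbp (0.63). Clock had its lowest values with Cry2 (−0.29) and Dbp (−0.28). The libraries share mice, conditions and differences in tissue content, so these correlations are descriptions without a test.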

How the data were processed

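The deposited values were raw gene counts, made by the authors: reads were trimmed with Cutadapt 5.0, aligned with STAR 2.7.10a to GRCm39 and counted on exons with featureCounts 2.0.6 and the Ensembl annotation, all libraries as reverse-stranded, although the kit of cortex and dHPC does not keep strand. The deposited gene lengths (other) were used for CPM per kilobase. Genes that reached 5 counts in 2 or more libraries of a group were tested by edgeR 4.0.16 (TMM, quasi-likelihood, prior count 0.125) within each region, and over regions by limma 3.58.1 (voom, mouse block), with Benjamini-Hochberg FDR under 0.1 over all genes, in R 4.3.3. DESeq2 1.42.0 was the alternative. Exact permutation tests used scipy 1.17.1 under Python 3.11.15. Exon overlap came from GENCODE annotation. The labels give a replicate number and no mouse. Libraries of a condition with the same number were taken as 1 mouse, which gives 16 mice, the number in the authors' methods. Scripts were tested on simulated data.

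The 10 genes, the lists and the tests were chosen with earlier results of these data known. Named genes were the 10, any gene of the other clock lists that passed, and the 5 most and 5 least like Dbp and Per1 at a mean of at least 5 CPM, of which 1 is not reported here. Genes named from the activity and glucocorticoid lists were picked after their values were seen. The fit of 1 mean per mouse and the fit without DS and VS were chosen after seeing the data. The reads carry no molecular identifiers. Libraries held 8149628 to 71164766 counts, and at least 134 counts of each of the 10 genes. Other normalization, filters, DESeq2, replicate and mouse blocks, batches and single libraries left out were the alternatives tried.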

Additional observations from a re-analysis of the deposited data

Results flagged for a closer look

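Of 60 groups of 4 tested for a sample far from the rest, 3 held one, where chance gives about 5%. In DS chronic ethanol, replicate 6 was the highest of 4 for Cry1, at 32.5 CPM, and for Per2, at 97.0 CPM, both from the same library. For Cry2, chronic saline mouse 2 was the highest of 4 mice in its mean over regions, at 0.11 on the log2 scale relative to all 16 mice.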

How the results depend on the processing

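None of the 10 called differences changed direction under the alternatives run. Among differences that were not called some did: over the regions, Per2 in the saline comparison was 0.39 without acute saline mouse 6 and −0.11 without mouse 2, Per1 after acute ethanol 0.24 and −0.09, and Dbp after chronic ethanol −0.18 in batch 1 and 0.23 in batch 2. With DESeq2, acute ethanol called 4 instead of 2 in DS, 3 instead of 0 in dHPC and 1 instead of 0 in vHPC, and the vHPC interaction 1 instead of 0. With no filter on low counts, acute ethanol called 2 in cortex, 5 in DS and 1 in dHPC, chronic ethanol 1 in vHPC, the DS saline comparison 3, and the interaction 1 in cortex and 1 in vHPC. With all 4 groups in one fit, DS acute ethanol called 1. Over the 5 regions, acute ethanol called 4, and 1 in batch 1 only, 2 without DS and VS and 0 with one mean per mouse. Chronic ethanol called 1, and 0 in batch 1, without DS and VS, or with one mean per mouse. The saline comparison called 3, and 0 in either batch, 1 without DS and VS and 0 with one mean per mouse. The cause of these shifts was not tested.

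Leaving out single libraries or mice, the acute ethanol counts ran from 0 to 1 in cortex, 1 to 4 in DS, 0 to 1 in dHPC, 0 to 2 in vHPC and 2 to 5 over the regions. The saline counts ran from 0 to 1 in DS, 0 to 3 in vHPC and 1 to 3 over the regions, chronic ethanol over the regions from 0 to 1, and the interaction from 0 to 1 in vHPC and over the regions. The calls added came without acute saline 2, 4 or 6 or acute ethanol 4.

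Where at least 2 replicate numbers were shared by the groups, they did not pair the libraries (correlation of deviations −0.16 to 0.10). Comparisons with only 1 shared number could not be checked. With the replicate block, acute ethanol in cortex called 3 clock genes instead of 0, Per2 (0.67), Per3 (0.34) and Tef (0.22). That fit rests on the 2 replicate numbers that the cortex groups share.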
